A study of Homo sapiens with 12 samples.

Results

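Glycophorins and the proteins that carry the Rh, Kx and Diego antigens are among the best known proteins of the red cell surface. Their messages were followed here through 9 genes, GYPB, GYPC, GYPE, RHAG, RHD, RHCE, XK, SLC4A1 and EPB42, chosen by name from the 58395 genes of a table of RNA sequencing read counts. The table holds 12 libraries, 4 for each of 3 human leukemia cell lines. K562, established from a chronic myeloid leukemia, has erythroid features. K/VP.5 is an etoposide-resistant subline of K562, known to have been derived as a clone. Etoposide is a drug that traps topoisomerase II on DNA. K/VP.5/edit-3 (edit-3 below) is a single clone of K/VP.5 whose TOP2A gene, which codes for topoisomerase II alpha, was altered with Cas9 at the 5′ splice site of intron 19 by a repair template designed for better recognition of that site. All 3 lines therefore share the K562 background, and edit-3 also descends from K/VP.5. The labels state 0.5 µM etoposide every other week for the 3 lines in 1 sentence and do not separate K562 from the others. Nothing in them tells separate cultures from repeat libraries of a culture, so a p-value here reflects the spread among libraries, and that spread may be technical.

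Library totals ran from 25.3 M to 37.1 M reads, with a median of 29.6 M. All 9 genes were among the 18286 that passed the filter on low counts. Levels are given as CPM, read counts divided by the scaled library size in units of M reads, and n = 4 for each mean ± SD. The 5 erythroid markers GATA1, HBG1, HBG2, HBZ and TFRC summed to 2240 to 3920 CPM in K562 libraries, 1800 to 2660 CPM in K/VP.5 and 2060 to 3260 CPM in edit-3, and each of the 5 was present in each line. Most of the sum was TFRC, the transferrin receptor, which dividing cells of other kinds express as well, at 2333 ± 748, 1545 ± 370 and 2210 ± 430 CPM. In bulk RNA, fewer cells of a type and less RNA per cell cannot be told apart.

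In red cells, glycophorins are sialic acid-rich proteins that span the membrane. GYPB and GYPE are copies that arose by gene duplication, while GYPC is unrelated in sequence and holds the membrane to the skeleton below it. RhAG, the product of RHAG, is needed to bring the Rh proteins of RHD and RHCE to the surface. Band 3, the anion exchanger encoded by SLC4A1, is the hub of the ankyrin complex, in which the EPB42 protein, glycophorins and Rh proteins meet. XK carries the Kx antigen and is bound to the Kell protein, KEL. GATA1, the main erythroid transcription factor, recognises GATA motifs in the promoters of many such genes.

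The copied genes were alike at their starts, and the upstream sequences are shown so that they can be set beside the levels of the pairs. They come from RefSeq (GRCh38.p14), 250 bases up to the transcription start in the direction of the gene. Capitals mark GATAA or, on the other strand, TTATC. GYPB (chr4:144019346-144019595, minus strand) and GYPE (chr4:143905560-143905809, minus strand) read as follows.
GYPB: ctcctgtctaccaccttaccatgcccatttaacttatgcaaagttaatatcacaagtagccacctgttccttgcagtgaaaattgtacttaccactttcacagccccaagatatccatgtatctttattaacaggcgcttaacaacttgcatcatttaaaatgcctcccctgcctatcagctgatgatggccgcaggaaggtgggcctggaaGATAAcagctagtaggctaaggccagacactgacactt
GYPE: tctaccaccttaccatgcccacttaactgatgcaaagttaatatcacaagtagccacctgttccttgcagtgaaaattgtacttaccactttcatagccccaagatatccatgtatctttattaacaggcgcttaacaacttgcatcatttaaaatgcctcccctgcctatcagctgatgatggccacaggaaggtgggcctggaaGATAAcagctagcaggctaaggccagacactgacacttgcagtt
Over windows of 250 bases before and 50 after the start, 287 of 294 aligned bases were identical between these 2 genes (97.6%). RHD (chr1:25272259-25272508, plus strand) and RHCE (chr1:25420826-25421075, minus strand) are given next.
RHD: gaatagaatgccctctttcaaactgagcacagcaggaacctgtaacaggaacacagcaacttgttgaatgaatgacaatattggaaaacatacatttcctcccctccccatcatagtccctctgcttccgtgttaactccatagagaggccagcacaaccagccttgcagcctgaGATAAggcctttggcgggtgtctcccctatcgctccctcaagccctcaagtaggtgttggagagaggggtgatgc
RHCE: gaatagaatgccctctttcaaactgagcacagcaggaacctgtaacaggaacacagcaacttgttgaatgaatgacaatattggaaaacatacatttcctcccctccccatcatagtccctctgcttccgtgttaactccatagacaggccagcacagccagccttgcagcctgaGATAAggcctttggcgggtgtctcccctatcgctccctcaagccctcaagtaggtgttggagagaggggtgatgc
Here 298 of 300 bases were identical (99.3%). RHAG (chr6:49636840-49637089, minus strand), the gene with the highest level of the 9, is shown for comparison.
RHAG: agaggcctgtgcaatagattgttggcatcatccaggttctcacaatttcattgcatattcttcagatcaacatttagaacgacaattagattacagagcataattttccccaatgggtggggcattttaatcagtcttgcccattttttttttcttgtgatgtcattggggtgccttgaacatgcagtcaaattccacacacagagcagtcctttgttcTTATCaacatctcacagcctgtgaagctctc

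The GATAA letters began 38 bases upstream of the start in GYPB, 44 in GYPE, 75 in both RHD and RHCE and 31 in RHAG. EPB42 had 2 matches, 207 and 60 bases upstream. Of the 7 genes with a 300-base window in the RefSeq table, 6 held GATAA on either strand, against 22.7% of all 35116 windows, and GYPC held none. The letters CCNCNCCC or their reverse complement, the kind of site that KLF1-type factors bind, were in 5 of the 7, against 56.2% of all windows, and overlapped no GATAA match. GYPB, RHD and RHCE each have 2 windows in the table, and the pair with most identical bases was used. The windows of GYPB and GYPE are near-identical copies, as are those of RHD and RHCE. A site kept in both copies therefore counts more than once among the 7, and the matches of a pair are not independent. A match is a run of letters only. No RefSeq window was available here for XK or SLC4A1.

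The comparison of K/VP.5 with K562 asks how the resistant subline differs from its parent, and that of edit-3 with K/VP.5 how the edited clone differs from K/VP.5. That of edit-3 with K562 asks where the clone stands against the original line. No unedited clone of K/VP.5 is among the samples, so the edit and the picking of a single clone cannot be told apart. Any pair of these comparisons shares the libraries of 1 line, so their values are set side by side below and not correlated. In K/VP.5 versus K562, GYPB, GYPE, RHAG and XK rose, SLC4A1 fell, and GYPC, RHD, RHCE and EPB42 did not pass an adjusted p of 0.05 in edgeR's quasi-likelihood test. That is 4 higher and 1 lower of 9, where 36.6% of all genes tested were called, 18.3% higher and 18.3% lower. From K/VP.5 to edit-3, RHD and SLC4A1 rose and GYPB, GYPE and RHAG fell, which makes 5 of 9 against 23.6% of all genes (12.9% higher, 10.6% lower). In edit-3 versus K562, GYPB, GYPE, RHD, RHCE and XK rose and RHAG and SLC4A1 fell, 7 of 9 against 39.2% (20.6% higher, 18.6% lower). The 9 genes were chosen with earlier results of these data known, so their counts are not those of a blind choice. Changes of at least 2-fold that also passed the test numbered 3 higher and 1 lower in K/VP.5 versus K562 (8.20% and 5.23% of all genes). Edit-3 versus K/VP.5 had 2 higher and 2 lower (5.15% and 3.18%, 8.32% in either direction), and edit-3 versus K562 had 5 higher and 1 lower (10.0% and 4.93%). The median log2 change of the 9 was 0.50, -0.12 and 1.03 in the 3 comparisons, while the median over all genes tested was 0.00, 0.00 and 0.01. Libraries did not overlap for 37.4%, 26.0% and 34.0% of all genes in the 3 comparisons, the background for the statements on overlap that follow.

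**Figure D1:**
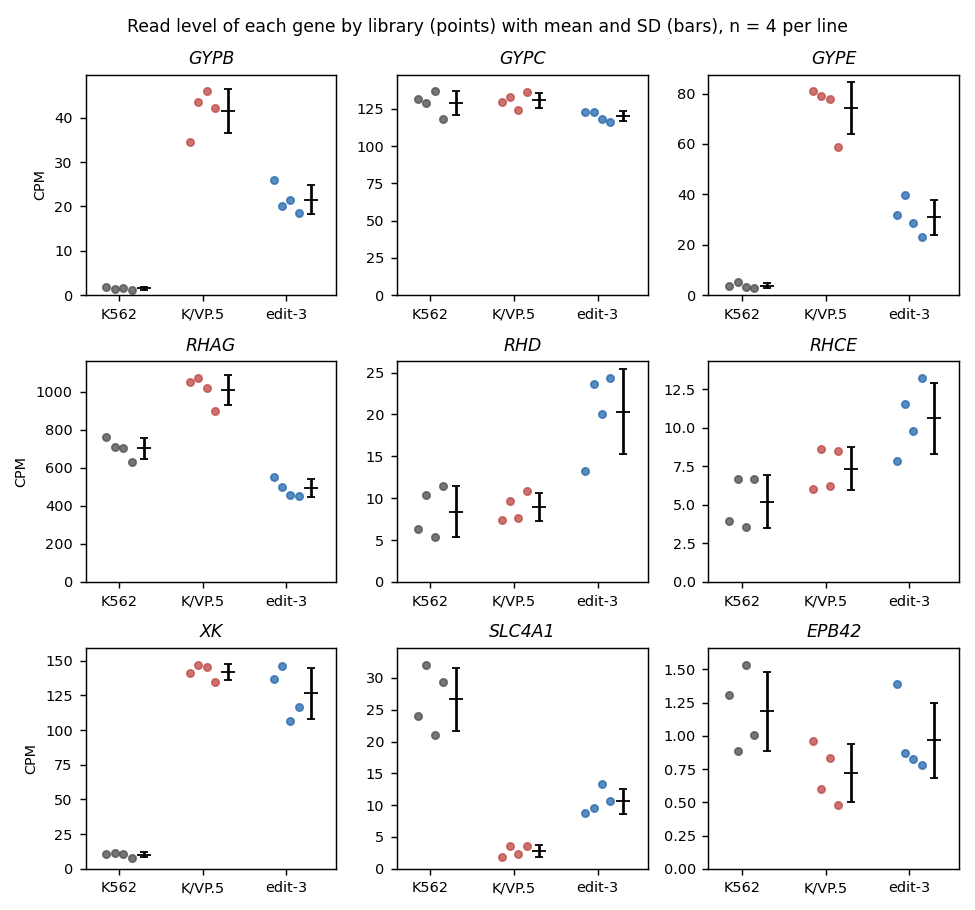
Level of each of the 9 genes in CPM (vertical axes from 0, a scale of their own in each panel) for K562, K/VP.5 and edit-3; points are single libraries and bars the mean ± SD of 4. GYPB, GYPE and XK are lower in every K562 library than in any library of both derived lines, SLC4A1 shows the opposite, and GYPC is level.

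**Figure D2:**
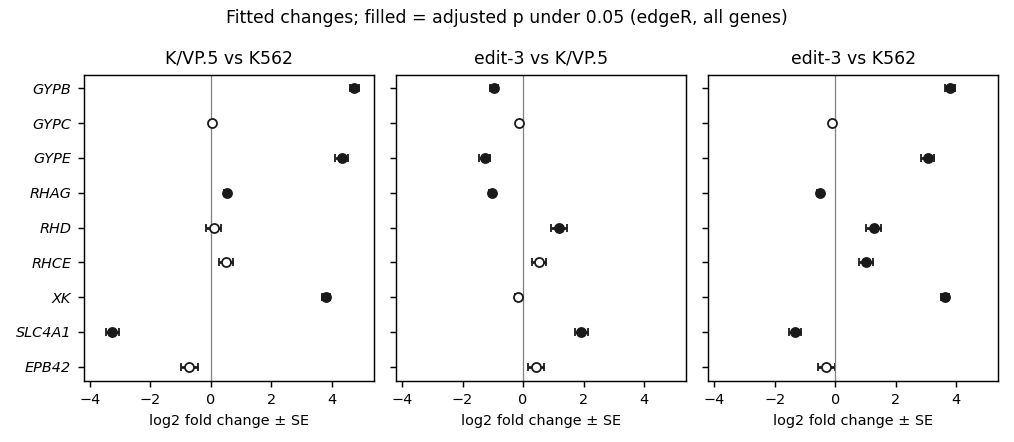
Fitted log2 fold changes ± SE of the 9 genes in the 3 comparisons, from edgeR with all 12 libraries; filled points have an adjusted p under 0.05. XK stays at 3.64 in edit-3 versus K562, near its 3.81 in K/VP.5 versus K562, while RHAG is above 0 in the left panel and below 0 in the other panels.

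GYPB (ENSG00000250361, chromosome 4, 143996104 to 144019345, minus strand, GRCh38) codes for glycophorin B, the carrier of the S and s antigens. Its 4 K562 libraries held 1.87, 1.41, 1.67 and 1.21 CPM, or 175 reads in all. K/VP.5 stood at 34.6, 43.7, 46.1 and 42.2 CPM and edit-3 at 26.0, 20.1, 21.4 and 18.4 CPM. Each line occupied a range of its own, with K/VP.5 highest. The means were 1.54 ± 0.29, 41.6 ± 4.98 and 21.5 ± 3.26 CPM. K/VP.5 was 26.9-fold above K562 (log2 fold change 4.75, SE 0.16, adjusted p = 1.5e-11). Edit-3 fell by 0.95 in log2 units from K/VP.5 (SE 0.13, adjusted p = 6.7e-05) and remained 13.9-fold above K562 (adjusted p = 1.1e-10).

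GYPE (ENSG00000197465, chromosome 4, 143870867 to 143905563, minus strand) is its copy, whose protein is little known. K562 libraries had 3.54, 5.18, 3.21 and 2.78 CPM. In K/VP.5 they had 81.1, 79.2, 78.0 and 58.8 CPM, and in edit-3 31.9, 39.8, 28.7 and 22.9 CPM. The order of the lines was that of GYPB, again without overlap, and K/VP.5 replicate 4 stood below the rest of its line. The fold over K562 was 20.1 in K/VP.5 (log2 4.33, SE 0.21, adjusted p = 2.9e-09) and 8.34 in edit-3 (adjusted p = 6.1e-08). From K/VP.5 to edit-3 GYPE fell by 1.27 in log2 units (SE 0.18, adjusted p = 0.00018).

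Because the copies are similar, reads can be assigned to the wrong one. In the transcript sequences, 12.7% of the distinct 50-base words of GYPB also occurred in another gene, mostly in a gene other than GYPE. For GYPE it was 1.15%, shared with GYPB, and GYPC and XK had none. GYPB and GYPE moved in the same direction in each comparison, and the values of each are uncertain to the extent that reads were shared.

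The split of reads between the copies was compared after the values were seen. GYPE made up 69.8 ± 6.2% of the reads of GYPE and GYPB in K562, 63.9 ± 4.9% in K/VP.5 and 58.6 ± 5.4% in edit-3, and every pair of lines overlapped. No difference passed the exact two-sided permutation test (p = 0.17 for K/VP.5 versus K562, 0.23 for edit-3 versus K/VP.5 and 0.086 for edit-3 versus K562). The smallest p that 4 against 4 libraries allow is 0.029. Adjusted over the 6 such comparisons made here, which include those of RHD and RHCE, the values were 0.21, 0.23 and 0.13.

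**Figure D3:**
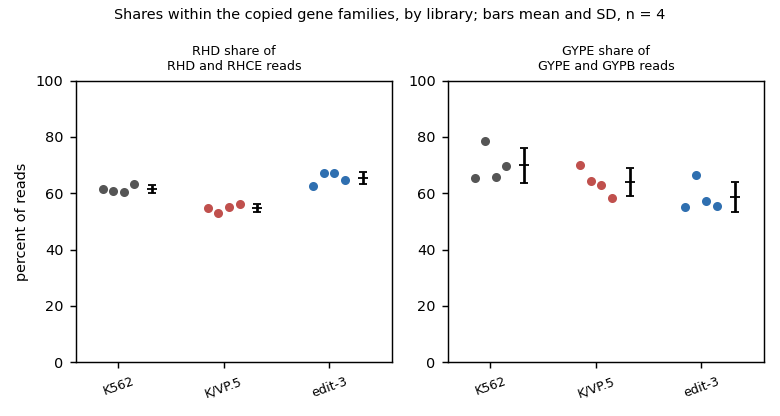
Percent of the summed reads of a copied gene family that fell on 1 copy, by line; points are libraries and bars the mean ± SD of 4. RHD lies between 53.0% and 56.0% in K/VP.5, below both other lines, while the GYPE share overlaps between all lines.

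The genes that lie around the glycophorins were compared to see how far the change extends along chromosome 4. Between SMARCA5 and ANAPC10, GYPE and GYPB rose in K/VP.5 versus K562 together with the processed pseudogene AC093890.1 and AC139713.2, a transcript annotated on the opposite strand across both glycophorin genes. AC093890.1 went from 0.19 ± 0.080 to 3.97 ± 0.41 CPM (log2 4.33, adjusted p = 1.2e-09) and AC139713.2 from 0.086 ± 0.080 CPM, 10 reads in all, to 2.64 ± 0.48 CPM (log2 4.83, adjusted p = 2.2e-07, or 5.67 without K562 replicate 3). Since no source used here states whether counting used strand, reads of AC139713.2 cannot be told apart from reads of the glycophorin genes it spans. On either side the change was small in the genes next to this stretch. SMARCA5, a chromatin remodeller, rose by 0.29 (adjusted p = 0.0081). ANAPC10, a subunit of the anaphase-promoting complex, rose by 0.25 (adjusted p = 0.043, lost without any 1 of 6 of the 8 libraries and with no filter on low counts). The same 4 genes were lower in edit-3 than in K/VP.5, with log2 changes of -1.27 for GYPE, -1.19 for AC139713.2, -0.95 for GYPB and -0.89 for AC093890.1, all called, and SMARCA5 (-0.22, adjusted p = 0.054) and ANAPC10 (-0.13, adjusted p = 0.32) did not pass. Beyond ANAPC10, ZNF827 rose by 5.08 in K/VP.5 versus K562 (adjusted p = 1e-05), a value that rests on 1 read in K562 and 56 in K/VP.5. ZNF827 stayed 4.81 above K562 in edit-3 (adjusted p = 2.2e-05). MMAA, between ANAPC10 and ZNF827, fell by 1.73 in K/VP.5 versus K562 (adjusted p = 0.0079). Of the 20 tested genes around GYPB, 7 were called higher and 3 lower in that comparison (18.3% and 18.3% of all genes). GYPE, AC093890.1 and AC139713.2 were among the 7.

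GYPC (ENSG00000136732, chromosome 2, 126655933 to 126696670, plus strand) codes for glycophorins C and D, which carry the Gerbich antigens and bind the skeleton through EPB41 and MPP1. The K562 libraries gave 131, 129, 137 and 118 CPM. Those of K/VP.5 gave 130, 133, 124 and 136 CPM, and those of edit-3 gave 123, 123, 118 and 116 CPM. All 12 values lay within a narrow band. No comparison passed, with log2 changes of 0.02, -0.12 and -0.10 (SE 0.064 each, adjusted p 0.85, 0.19 and 0.23), although edit-3 libraries all lay below those of K/VP.5. Its partner EPB41 stood at 377 ± 6.9, 378 ± 13 and 351 ± 18 CPM and passed in none of the comparisons either (adjusted p 0.96, 0.21 and 0.18). MPP1, the palmitoylated scaffold between them, fell by 1.66 in K/VP.5 versus K562 (adjusted p = 1.8e-09), from 306 ± 26 to 97.0 ± 4.5 CPM, and rose by 0.79 from there to edit-3 (adjusted p = 8.7e-06).

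RHAG (ENSG00000112077, chromosome 6, 49605158 to 49636884, minus strand), whose protein is also a channel for ammonia, had the highest level of the 9. Its K562 libraries held 760, 710, 704 and 630 CPM. K/VP.5 libraries held 1052, 1072, 1017 and 898 CPM, and edit-3 libraries 553, 500, 459 and 451 CPM. The lines did not overlap, and the order was K/VP.5, K562, edit-3. RHAG rose 1.44-fold in K/VP.5 versus K562 (log2 0.53, SE 0.083, adjusted p = 0.00014). It fell by 1.04 in log2 units from K/VP.5 to edit-3 (SE 0.084, adjusted p = 3.9e-07) and by 0.51 from K562 to edit-3 (SE 0.083, adjusted p = 0.00016).

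RHD (ENSG00000187010, chromosome 1, 25272393 to 25330445, plus strand) carries the D antigen. Its level was 6.29, 10.4, 5.39 and 11.5 CPM for K562 libraries, 7.37, 9.70, 7.68 and 10.8 CPM for K/VP.5, and 13.2, 23.7, 20.04 and 24.4 CPM for edit-3. Replicates 2 and 4 were the higher ones in each line, the K562 and K/VP.5 ranges overlapped, and every edit-3 library lay above them. In edit-3 RHD was 2.28-fold above K/VP.5 (log2 1.19, SE 0.25, adjusted p = 0.0036) and 2.42-fold above K562 (log2 1.28, SE 0.25, adjusted p = 0.0012). K/VP.5 versus K562 gave 0.09 (SE 0.25, adjusted p = 0.83).

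RHCE (ENSG00000188672, chromosome 1, 25362249 to 25430192, minus strand), the neighbour and copy of RHD, carries the C, c, E and e antigens. Its values were 3.92, 6.72, 3.55 and 6.68 CPM for K562, 6.07, 8.61, 6.22 and 8.53 CPM for K/VP.5, and 7.85, 11.5, 9.81 and 13.3 CPM for edit-3. Replicates 2 and 4 were again the higher ones, and edit-3 overlapped K/VP.5 but not K562. RHCE rose 2.04-fold in edit-3 versus K562 (log2 1.03, SE 0.23, adjusted p = 0.0023). The differences of 0.50 in K/VP.5 versus K562 and 0.53 in edit-3 versus K/VP.5 did not pass (SE 0.23 and 0.22, adjusted p = 0.11 each). With the replicate number as a block, K/VP.5 versus K562 was 0.52 at an adjusted p of 0.0041.

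Of the 50-base words, 25.1% of RHCE and 18.9% of RHD occurred in another gene, mostly the other of the pair. Summed, RHD and RHCE gave 13.6 ± 4.71, 16.3 ± 3.03 and 31.0 ± 7.35 CPM. The sum rose in edit-3 against K/VP.5 (log2 0.93, SE 0.24, adjusted p = 0.015) and against K562 (1.19, adjusted p = 0.0019) and did not pass in K/VP.5 versus K562 (0.26, adjusted p = 0.46). RHD held 61.5 ± 1.3% of the summed reads in K562, 54.8 ± 1.3% in K/VP.5 and 65.5 ± 2.2% in edit-3. K/VP.5 lay below both other lines without overlap (exact permutation p = 0.029 each, 0.086 adjusted), and edit-3 overlapped K562 (exact p = 0.057, 0.11 adjusted). None of these differences in share passed after adjustment. A pass would have needed most of the 6 comparisons of shares to sit at the smallest p possible, so the adjusted values decide little. RHAG thus fell from K/VP.5 to edit-3, where RHD rose and RHCE did not pass. RHBG and RHCG, the nonerythroid members of the RHAG family, had 2, 6 and 2 reads and 0 reads in the 3 lines, too few to test.

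XK (ENSG00000047597, chromosome X, 37685756 to 37732130, plus strand) had 10.9, 11.2, 10.8 and 7.69 CPM in K562. K/VP.5 libraries had 141, 147, 146 and 134 CPM, and edit-3 libraries 137, 146, 106 and 116 CPM. K562 was low in every library, and the 2 derived lines overlapped. K/VP.5 was 14.0-fold above K562 (log2 3.81, SE 0.13, adjusted p = 1.7e-11) and edit-3 12.5-fold (log2 3.64, adjusted p = 2.4e-11). Between edit-3 and K/VP.5 the difference of -0.17 (SE 0.11, adjusted p = 0.33) did not pass.

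The 2 known partners of XK did not rise in K/VP.5. KEL, whose protein is joined to XK by a disulfide bond, stood at 24.4 ± 2.9, 28.2 ± 2.0 and 44.1 ± 3.8 CPM. It did not pass in K/VP.5 versus K562 (0.21, adjusted p = 0.12) and rose by 0.64 from K/VP.5 to edit-3 (adjusted p = 0.0002). VPS13A, a lipid transfer protein that binds XK, fell by 0.40 in K/VP.5 versus K562 (adjusted p = 0.0017), from 105 ± 7.2 to 79.5 ± 8.8 CPM, and did not pass in edit-3 versus K/VP.5 (-0.09, adjusted p = 0.51).

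Genes beside XK on the X chromosome rose with it in K/VP.5. LANCL3, a LanC-like gene that ends just before XK, had 13 reads in the 4 K562 libraries together and 23.4 ± 3.27 CPM in K/VP.5 (log2 7.62, SE 0.19, adjusted p = 6.1e-13). CYBB, the heavy chain of the phagocyte NADPH oxidase, went from 0.20 ± 0.12 to 5.80 ± 0.36 CPM (log2 4.81, SE 0.27, adjusted p = 4e-09). DYNLT3, a dynein light chain, had 2 reads in K562 and 538 in K/VP.5, a ratio of 236 with an exact 95% interval of 65.1 to 1960 that covers counting error only. These 4 adjoining genes were at or near the floor in K562 except XK itself. Farther out, PRRG1 rose by 1.11 (adjusted p = 1.4e-05), RPGR on the other side did not pass (0.20, adjusted p = 0.16), and DMD, the dystrophin gene, fell by 7.28 (adjusted p = 4.1e-12), from 19.95 ± 1.97 to 0.12 ± 0.044 CPM. In edit-3 versus K/VP.5, LANCL3 fell by 0.59 (adjusted p = 0.0013) and CYBB by 0.58 (adjusted p = 0.046, lost without any 1 of 7 of the 8 libraries and with upper quartile scaling), while DYNLT3 was 0.59 higher and did not pass (adjusted p = 0.059).

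**Figure D4:**
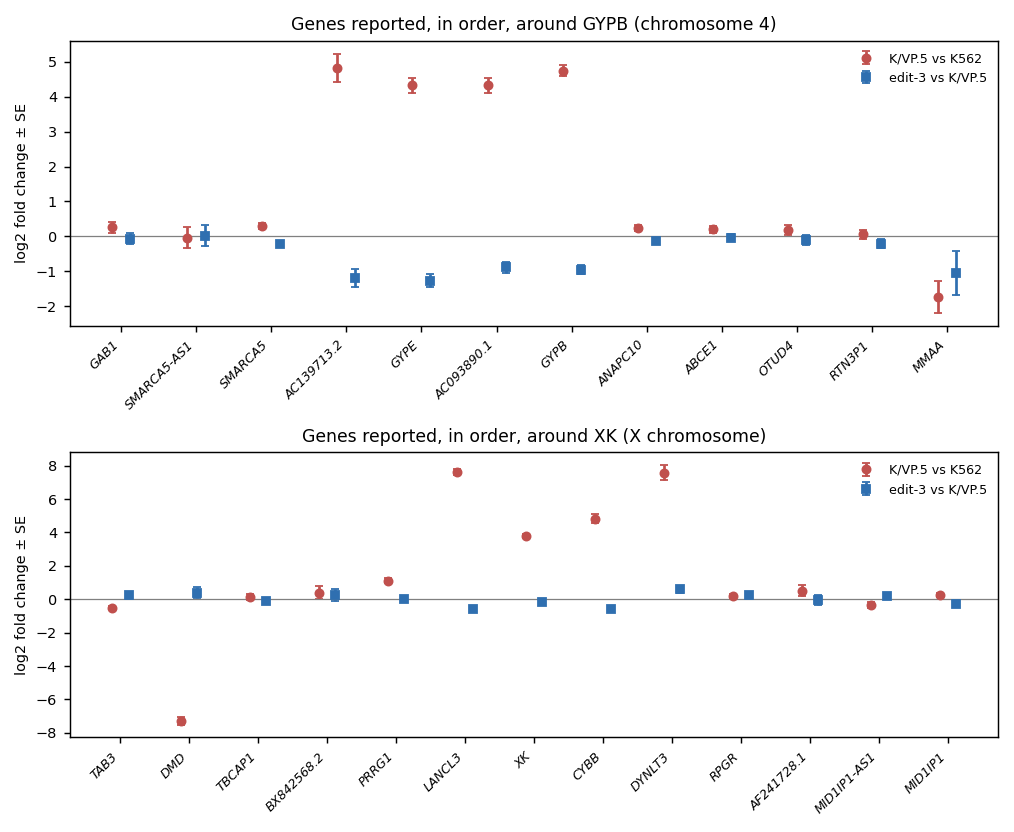
Log2 fold change ± SE (vertical axis) of the genes reported here in their order along the chromosome around GYPB (top) and XK (bottom), for K/VP.5 versus K562 (red circles) and edit-3 versus K/VP.5 (blue squares). Red points stand far above 0 only from AC139713.2 to GYPB in the top panel, which ends before ZNF827, and from LANCL3 to DYNLT3 in the bottom one. The DYNLT3 point rests on 2 reads in K562.

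The genes around the other members were looked at in the same way, 10 tested genes on each side. Their median log2 change in K/VP.5 versus K562 was 0.02 around SLC4A1, -0.04 around RHAG, 0.15 around EPB42, 0.03 around GYPC, 0.09 around RHD and 0.06 around RHCE. It was also only 0.23 around GYPB and 0.22 around XK, so a median over 20 genes does not show a short run of genes that move together, and single neighbours chosen after their values were seen are given here.

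Beside RHAG, CRISP3, a cysteine-rich secretory protein and the next tested gene, went with it in both steps. CRISP3 stood at 2.86 ± 0.18 CPM in K562, 7.78 ± 0.499 CPM in K/VP.5 and 0.065 ± 0.026 CPM, 8 reads in all, in edit-3 (log2 1.44 and then -6.80, adjusted p = 6.3e-07 and 1.8e-11). TFAP2B, an AP-2 transcription factor and the third tested gene on that side, had 1, 2661 and 6 reads in the 3 lines. Its ratio of K/VP.5 to K562 was 2340, with an exact 95% interval of 419 to 92400 that covers counting error only, and it was called in both steps (adjusted p = 1.2e-11 and 3.7e-11). DEFB133, which lies between them, did not pass in either step (adjusted p = 0.81 and 0.20), nor did CENPQ, the nearest tested gene on the other side (adjusted p = 0.29 and 0.30). CRISP3 and RHAG were both lower in edit-3 than in K562, CRISP3 by a log2 difference of -5.36 (adjusted p = 9.7e-11). Of the 20 tested genes around RHAG, 5 were called higher and 5 lower in K/VP.5 versus K562 (18.3% and 18.3% of all genes). From K/VP.5 to edit-3, 3 were called higher and 2 lower (12.9% and 10.6% of all genes), near the share over all genes. PAQR8 went against RHAG in both steps (log2 -3.287 and then 2.985, adjusted p = 6.6e-08 and 3.9e-07). RUNX2 was lower in K/VP.5 than in K562 (log2 -4.256, adjusted p = 9.1e-05) and did not pass in the second step.

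Around SLC4A1 the neighbours ran from -0.37 to 1.43 in K/VP.5 versus K562, so none of the 20 fell as far as SLC4A1 did. In edit-3 versus K/VP.5 they ran from -0.59 to 3.09. The highest was ITGA2B, the integrin chain of platelets, which rose more than SLC4A1 itself (adjusted p = 0.00089), from 1.60 ± 0.62 to 13.8 ± 4.8 CPM. It did not fall before that (K/VP.5 versus K562 0.81, adjusted p = 0.30). Around the Rh genes the medians in edit-3 versus K/VP.5 were 0.30 for RHD and 0.26 for RHCE, in windows that each include the other Rh gene. RCAN3, in the RHD window, rose in K/VP.5 versus K562 (3.52, adjusted p = 7.3e-09), where RHD did not pass, and again from there to edit-3 (1.23, adjusted p = 5.1e-05).

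SLC4A1 (ENSG00000004939, chromosome 17, 44248385 to 44268141, minus strand) codes for band 3, the chloride and bicarbonate exchanger of the red cell, and was the member that fell in K/VP.5. K562 libraries held 24.0, 32.1, 21.1 and 29.3 CPM. In K/VP.5 they held 1.81, 3.51, 2.26 and 3.54 CPM, and in edit-3 8.79, 9.58, 13.3 and 10.7 CPM. The 3 lines did not overlap, and edit-3 lay between the others. SLC4A1 fell by 3.26 in log2 units in K/VP.5 versus K562 (SE 0.22, adjusted p = 3.7e-08) and rose by 1.93, 3.80-fold, from there to edit-3 (SE 0.22, adjusted p = 1.4e-05). Edit-3 remained below K562 by a log2 difference of -1.33 (SE 0.20, adjusted p = 9.4e-05).

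EPB42 (ENSG00000166947, chromosome 15, 43197227 to 43221125, minus strand) codes for a peripheral protein that ties band 3 to the skeleton and is related to the transglutaminases. It was the lowest of the 9, with 1.31, 0.88, 1.54 and 1.01 CPM for K562, 0.96, 0.60, 0.84 and 0.48 CPM for K/VP.5 and 1.39, 0.87, 0.83 and 0.78 CPM for edit-3. Single libraries held only 17 to 45 reads, and all lines overlapped. K/VP.5 versus K562 gave -0.72 (SE 0.28, adjusted p = 0.056), edit-3 versus K/VP.5 0.43 (adjusted p = 0.31) and edit-3 versus K562 -0.29 (adjusted p = 0.43). With the replicate number as a block the first was -0.73 at an adjusted p of 0.017, and it passed as well without K562 replicate 2 (-0.84, adjusted p = 0.043) or K/VP.5 replicate 1 (-0.90, adjusted p = 0.035). Of its 50-base words, 12.5% are shared with AC068724.4, an annotated gene that overlaps it on the same strand.

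Levels of different genes were compared per kilobase of exon. RHAG led in each line, with 261 ± 19.8, 375 ± 29.1 and 182 ± 17.5 CPM per kb in K562, K/VP.5 and edit-3. EPB42 was last, at 0.39 ± 0.097, 0.24 ± 0.072 and 0.32 ± 0.093. In K562, GYPC was next after RHAG at 33.8 ± 2.04 and SLC4A1 followed at 5.19 ± 0.97. RHD (2.54 ± 0.91), RHCE (2.15 ± 0.71), XK (1.95 ± 0.32) and GYPE (1.83 ± 0.52) came next with overlapping ranges, and GYPB was at 0.82 ± 0.16. Within each K562 library RHD lay above RHCE. The order changed in K/VP.5, where GYPE (37.1 ± 5.20) and GYPC (34.3 ± 1.31) lay within their spread of each other, above XK (27.3 ± 1.11) and GYPB (22.2 ± 2.66). RHCE (3.02 ± 0.58) and RHD (2.69 ± 0.50) overlapped there, with RHCE the higher in every library, and SLC4A1 had dropped to 0.54 ± 0.17. In edit-3, GYPC (31.5 ± 0.91) and XK (24.3 ± 3.50) stood above GYPE (15.4 ± 3.50) and GYPB (11.5 ± 1.74). The ranges of GYPE and GYPB overlapped, and GYPE was the higher in every library. RHD (6.14 ± 1.54) and RHCE (4.36 ± 0.95) followed, also overlapping, with RHD the higher in every library, and SLC4A1 was at 2.06 ± 0.38.

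**Figure D5:**
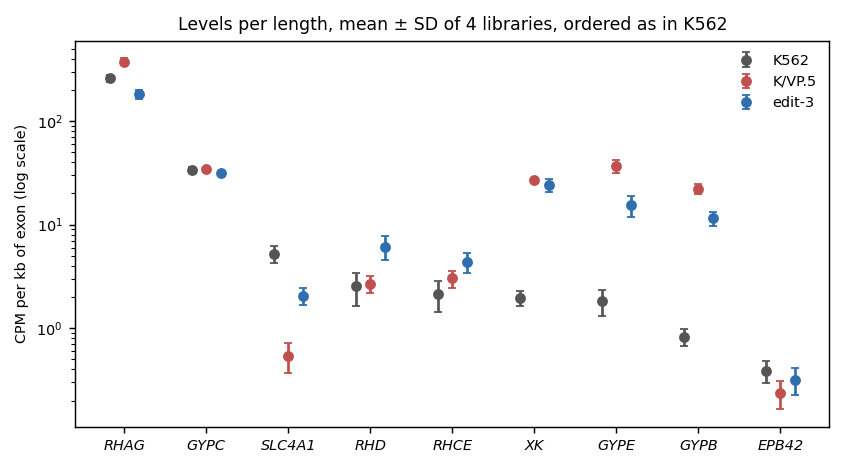
Mean level ± SD of 4 libraries in CPM per kb of exon (log axis) for the 9 genes, ordered as in K562. RHAG leads at 182 to 375 in every line, and GYPE, GYPB and XK move from the low end in K562 to above 10 in both derived lines.

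For each member the 3 genes with the most similar profile were sought by the Euclidean distance between log2 CPM values over the 12 libraries, each centred on its own mean, among genes with a mean of at least 1 CPM. For GYPE they included AC093890.1 (distance 0.92) and GYPB (1.47), both from its own stretch of chromosome 4. GYPB was nearest to MAPK8IP2 (1.07), ZNF550 (1.11) and CYBB (1.34), and XK to SLC30A4 (0.47) and ALX4 (0.98). RHAG was nearest to RXYLT1 (0.50), PUS3 (0.54) and C12orf66 (0.55). RHD lay closest to CAVIN1 (0.58), RASSF5 (0.68) and EPS8L2 (0.69), and RHCE to HEPH (0.54), BOK (0.55) and AGRN (0.56). SLC4A1 had ZSCAN20 (0.97), CECR2 (1.02) and LINC00958 (1.31), EPB42 had NR6A1 (0.68), NFATC2 (0.69) and SLC39A8 (0.73), and the level GYPC had ZBED1 (0.20) and LAMTOR5 (0.21) among its nearest. The 12 libraries share 3 lines, so such distances mostly describe the 3 line means.

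Genes that work with the 9 in the red cell membrane were counted from lists, which were chosen with earlier results of these data known. The background for the counts of this list and those below is the share of all genes tested. In K/VP.5 versus K562, 36.6% were called (18.3% higher, 18.3% lower). The shares were 23.6% in edit-3 versus K/VP.5 (12.9% higher, 10.6% lower) and 39.2% in edit-3 versus K562 (20.6% higher, 18.6% lower). Of 19 genes of the membrane skeleton and its anchors, 4 rose, 5 fell and 10 did not pass in K/VP.5 versus K562 (median log2 change -0.09). From K/VP.5 to edit-3 the counts were 7, 3 and 9 (median 0.06), and in edit-3 versus K562 8, 5 and 6 (median 0.09). SPTB, a spectrin chain, rose by 0.32 in K/VP.5 versus K562 (adjusted p = 0.0064) and by 0.27 in edit-3 versus K562 (adjusted p = 0.015, lost without K562 replicate 3 or edit-3 replicate 4), and gave -0.04 between edit-3 and K/VP.5. ANK1, the ankyrin that holds band 3, passed in none of the comparisons (0.14, -0.07 and 0.07, adjusted p 0.28, 0.66 and 0.60).

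Beside that of MPP1, large skeleton changes in K/VP.5 versus K562 were in the adducins ADD2 (1.85) and ADD1 (-0.92). From K/VP.5 to edit-3 they were in DMTN (1.22), which bundles actin, the calcium pump ATP2B4 (0.98) and STOM (0.94), stomatin. Between edit-3 and K562 they were in ADD2 (1.46), DMTN (1.21) and ADD1 (-0.92). The DMTN call between edit-3 and K/VP.5 (adjusted p = 0.023) was lost without K/VP.5 replicate 1, 2 or 3, without edit-3 replicate 3 or 4 and with no filter on low counts (adjusted p 0.052 to 0.075).

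Of 26 other carriers of blood group antigens, 20 could be tested. In K/VP.5 versus K562, 6 rose, 5 fell and 9 did not pass (median 0.17), led by BCAM (3.50), the Lutheran antigen carrier, the water channels AQP1 (3.31) and AQP3 (1.70), which carry the Colton and GIL antigens, and SEMA7A (1.13). From K/VP.5 to edit-3, 6 rose, 3 fell and 11 did not pass (median 0.22), led by CD44 (5.12), the Indian antigen carrier, CD47 (1.995), CD55 (0.68) and KEL (0.64). CD44 had 16 reads in K562, 12 in K/VP.5 and 416 in edit-3. Edit-3 versus K562 had 11 higher, 3 lower and 6 not passing (median 0.61), led by CD44 (4.55), AQP1 (3.63), BCAM (2.94) and AQP3 (1.93). CD47, which joins the Rh complex in the membrane, stood at 27.1 ± 3.4, 18.7 ± 2.0 and 74.5 ± 7.6 CPM, and so fell and then rose (adjusted p = 0.0012 and 6.8e-09).

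Of 19 relatives and partners of the members, 7 could be tested. In K/VP.5 versus K562, 1 rose and 4 fell, with SLC4A3 (2.44), another anion exchanger, TGM2 (-1.66), a transglutaminase related to EPB42, VPS13A (-0.40) and the bicarbonate cotransporter SLC4A7 (-0.34) moving most. Without K562 replicate 4, SLC4A3 was at 3.03. The SLC4A7 call (adjusted p = 0.047) was lost without each of 6 of the 8 libraries in turn (all but K562 replicate 2 and K/VP.5 replicate 4), with upper quartile scaling and with no filter on low counts. TGM2 rose (1.05) and SLC4A7 fell (-0.68) from K/VP.5 to edit-3. Against K562, edit-3 had SLC4A3 higher (2.63, or 3.22 without K562 replicate 4) and SLC4A7 (-1.01), TGM2 (-0.62) and VPS13A (-0.49) lower. The medians of the list were -0.31, 0.10 and -0.26. TGM2 stood at 113 ± 9.7, 35.8 ± 3.4 and 73.9 ± 11 CPM, the order of lines that SLC4A1 has.

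Of 7 enzymes that build ABO, H, I and P antigens, 5 could be tested, with medians of 0.67, 0.65 and 1.06. A4GALT, which makes the P blood group glycolipids, had 4 reads in K562, 121 in K/VP.5 and 307 in edit-3, and rose at each step (adjusted p = 3.1e-06 and 0.0011). GCNT2, which makes the I antigen branches, rose by 1.53 in K/VP.5 versus K562 (adjusted p = 0.0003) and fell by 2.83 from there to edit-3 (adjusted p = 3.8e-06), to 1.30 below K562. ABO did not pass in K/VP.5 versus K562 (0.08) and rose by 0.98 in edit-3 versus K/VP.5 (adjusted p = 5.8e-06) and by 1.06 in edit-3 versus K562.

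Of 12 erythroid transcription factors, 1 rose, 8 fell and 3 did not pass in K/VP.5 versus K562 (median -0.48). GATA1 fell by 0.51 (adjusted p = 0.00028), from 278 ± 34 to 196 ± 13 CPM, and did not pass between edit-3 and K/VP.5 (0.02, adjusted p = 0.88). KLF1, a factor of late erythroid genes, stood at 184 ± 38, 175 ± 16 and 157 ± 34 CPM and passed in none of the comparisons (adjusted p 0.77, 0.56 and 0.31). The largest changes in K/VP.5 versus K562 were in BCL11A (1.78), NFE2 (-1.12), LDB1 (-0.82) and SOX6 (-0.66). BCL11A had 18 reads in K562. In edit-3 versus K/VP.5, 2 rose, 2 fell and 8 did not pass (median -0.03), namely GFI1B (0.42), MYB (0.41), SOX6 (-2.84) and LMO2 (-0.62). The MYB call (adjusted p = 0.043) was lost in limma, with only the 2 lines fitted, and without any K/VP.5 library or edit-3 replicate 2. Edit-3 versus K562 had 2 higher, 5 lower and 5 not passing (median -0.27), with SOX6 (-3.50), BCL11A (1.42), NFE2 (-1.03) and LMO2 (-1.01) moving most. The BCL11A call there (adjusted p = 0.024) was lost without K562 replicate 1 or 3 or edit-3 replicate 4. Among the 5 erythroid markers, HBG1 rose (0.79, adjusted p = 0.0037), GATA1 fell and 3 did not pass in K/VP.5 versus K562, beside the rise of GYPB, GYPE and XK. The part of these factors in the levels of the 9 genes was not tested.

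Markers of other cell types were summed in the same libraries. The stroma markers COL1A1, COL1A2 and DCN summed to 6.15 to 11 CPM in K562, 209 to 288 CPM in K/VP.5 and 1690 to 2960 CPM in edit-3. Most of it was COL1A2, at 6.82, 230 and 2491 CPM, while DCN had 1, 2 and 2 reads. COL1A1, at 1.47, 18.8 and 7.55 CPM, went the other way in the second step. It fell by 1.32 in log2 units from K/VP.5 to edit-3 (adjusted p = 0.0028), where COL1A2 rose by 3.44. The 5 T and B cell markers, CD3D and MS4A1 among them, summed to 40.1 to 81.9, 10.8 to 18.8 and 21.6 to 53.1 CPM, with MS4A1 at 0 reads in every library. Nearly all of it was CD3D, at 50.03 ± 19, 10.7 ± 3.5 and 35.3 ± 13 CPM. K562 and edit-3 overlapped in this sum, and CD3D did not pass between them (adjusted p = 0.26), whereas both lay above K/VP.5, as they did for SLC4A1. The monocyte and granulocyte markers CD14, LYZ, MPO and ELANE summed to at most 1.5 CPM in any library. The part of these differences in the levels of the 9 genes was not tested.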

How the data were processed

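RNA of 3 lines was sequenced in 12 libraries. Counts of reads for each gene, whole and not normalized, form the table the authors deposited. They used GRCh38 with HISAT2 2.1.0, featureCounts and Subread 1.5.1, per the submitters' processing notes. For the annotation release, the strand setting and reads with several matches, nothing is stated in the sources used here. Libraries were grouped by source name, since the description field calls all of them parental.

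Counts were fitted in R 4.3.3 with edgeR 4.0.16 (filterByExpr, TMM scaling, robust quasi-likelihood, all 12 libraries, 1 coefficient per line, Benjamini-Hochberg over 18286 genes holding 99.89% of reads, adjusted p under 0.05 called). The SE is the size of the log2 fold change divided by the square root of the F statistic. Alternatives used DESeq2 1.42.0 and limma 3.58.1, other scalings and filters, fewer lines, a replicate block, summed copies and left-out libraries. Positions and exon lengths came from GENCODE 29, which held 58275 of the gene IDs.

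The members, and 5 lists (skeleton, antigen carriers, relatives, glycan enzymes, factors) and 4 marker lists, were chosen with earlier results of these data known. Named were all 9 members, 12 preset genes, the up to 4 genes of each list with the largest called change per comparison, and the 3 genes nearest in profile, except some that are not reported here; chromosomal neighbours and the family shares were singled out after their values were seen.

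Titles number the libraries of each line 1 to 4. Deviations from line means correlated at 0.27 to 0.77 between K/VP.5 and K562 libraries of equal number. For edit-3 the range was -0.14 to 0.74 with K562 and -0.16 to 0.67 with K/VP.5. Libraries of unequal number reached 0.65 (edit-3 replicate 1 with K562 replicate 3). A pairing by number rests on the data alone. No value in the report uses it unless the replicate block is named. Pairs within a line differed beyond sampling noise (chi-square per degree of freedom 6.68 to 67.4 over 18 pairs).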

Additional observations from a re-analysis of the deposited data

Results flagged for a closer look

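In groups of 4 libraries, a highest or lowest library was looked for whose gap to the next exceeded the 95% critical value of Dixon's ratio, which chance gives in about 1 of 20 groups. Among the 27 groups of the 9 genes, 3 had one. GYPE in K/VP.5 had its lowest library, replicate 4, at 58.8 CPM, with the others at 78.0 to 81.1 CPM. Without it the log2 change from K562 was 4.43 in place of 4.33. XK in K562 had replicate 4 at 7.69 CPM, below 10.8 to 11.2 CPM in the others. EPB42 in edit-3 had replicate 1 at 1.39 CPM, above 0.78 to 0.87 CPM, which rests on 43 reads.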

How the results depend on the processing

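Each member was refitted in each comparison under other scalings, tools and filters, with only 2 lines, with a replicate block, with copies summed and without single libraries. No direction that had passed the test reversed, and none of the members' calls was lost. In K/VP.5 versus K562, 143 of 147 such values kept their side of the threshold and 4 newly passed. In edit-3 versus K/VP.5 it was 144 of 147 with 3 newly passing, and in edit-3 versus K562 all 147. With the replicate block, 2 members in place of 1 were lower in K/VP.5 versus K562, the added gene being EPB42. Leaving out single libraries gave 1 to 2. RHCE in edit-3 versus K/VP.5 passed with the replicate block (0.53, adjusted p = 0.005), a block that the correlations of same-numbered libraries there (-0.16 to 0.67) did not bear out, and without edit-3 replicate 1 (0.65, adjusted p = 0.049). The third value counted as newly passing there is that of the sum with RHD (0.93, adjusted p = 0.015). RHD held 65.5% of that sum in edit-3 and was called by itself, so the sum does not speak for RHCE alone. Over all genes the block called 7681, 5494 and 8121 genes in the 3 comparisons, against 6688, 4309 and 7166, and every setting together gave 5839 to 7681, 3388 to 5494 and 6048 to 8121. Some list counts moved by more than 1.5 times: relatives lower in K/VP.5 versus K562 (4, or 2 with upper quartile scaling or no filter), factors higher there (1, or 0 to 2), and in edit-3 versus K/VP.5 skeleton genes higher (7, or 4 with no filter), skeleton genes lower (3, or 5 with the replicate block), factors higher (2, or 1 in limma) and relatives higher (1, or 2 with no filter). In edit-3 versus K562, relatives higher went from 1 to 2 with no filter and factors higher from 2 to 1 with the stricter filter. The causes were not tested. Depth limits EPB42, at 17 to 45 reads per library, and GYPB in K562, at 175 reads in all.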
